A study of Arabidopsis thaliana with 12 samples.

Results

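The 42 named transcripts described here had a higher array signal in the Arabidopsis thaliana mutant ppi1 than in the wild type (WT) in each of 6 same-numbered comparisons. They were chosen from the measured values themselves. After quantile normalisation and log2, a feature was kept if the platform annotation gave it 1 gene, if its ppi1 array was above the WT array of the same replicate number in 6 of 6 numbers, and if the mean difference (ppi1 minus WT) was at least 0.25. Of 3365 features with a value above 0 on some array, 676 had 1 gene, and 47 of these met the conditions. The rule set 9 genes aside by name, 5 of which met the conditions, which left the 42. Every value of the ppi1 and WT contrast below is therefore a description of how these genes were chosen, and no test of it is given.

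The series compared total RNA of 6 WT arrays and 6 ppi1 arrays, all labelled ecotype Columbia 0. The labels describe ppi1 as a mutant with defective chloroplast protein import, and name no allele, age, tissue or treatment. Whether each replicate was a separate plant or culture is left unstated there. In a sample of whole tissue, fewer cells of a type and less transcript per cell cannot be told apart.

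Most chloroplast proteins are encoded in the nucleus, made in the cytosol as precursors and imported through translocons of the outer and inner chloroplast envelope. The ppi1 plant lacks TOC33, a receptor of the outer translocon, and is known to be pale with reduced import. Nuclear genes respond to the state of the chloroplast through retrograde signalling, which is best known for lowering photosynthesis transcripts when plastids are impaired. Roles given below for single genes are general background, since the tables used here hold names only.

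Summed deposited intensities were 3380 to 3582 on the WT arrays and 3598 to 3689 on the ppi1 arrays, and array medians ran from 0.475 to 0.645 before normalisation. Replicates 1 and 2, 3 and 4, and 5 and 6 of a group lay close together, where the median absolute log2 difference was 0.0861 to 0.122, while arrays of a group from different sets differed by 0.158 to 0.314. Of the fixed tissue markers, 0 of 4 for senescence, 0 of 4 for root, 0 of 3 for seed and 1 of 5 for leaf had a feature of their own. The leaf marker LHB1B2, which encodes a light-harvesting antenna protein, lay between 14.0 and 17.0 in WT and between 6.83 and 8.02 in ppi1. As a photosynthesis gene it is not a measure of leaf content in a mutant with defective chloroplast protein import. The part of tissue makeup in the differences below was not tested.

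Mean log2 differences of the 42 genes ran from 0.26 to 0.69, with a median of 0.37, against a median of 0.0050 over all 3365 features. A difference of at least 0.5 was reached by 7 of them. The same rule was met by 224 of all features (6.66%) and, turned to lower values, by 271 (8.05%). Among features with 1 gene the shares were 6.95% higher and 6.51% lower, so named genes met the rule in about the same share as features at large. In 9 of the 42, the lowest ppi1 array was above the highest WT array, which held for 2.14% of all features. Nothing is read from this count, because the same contrast chose the genes.

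**Figure D1:**
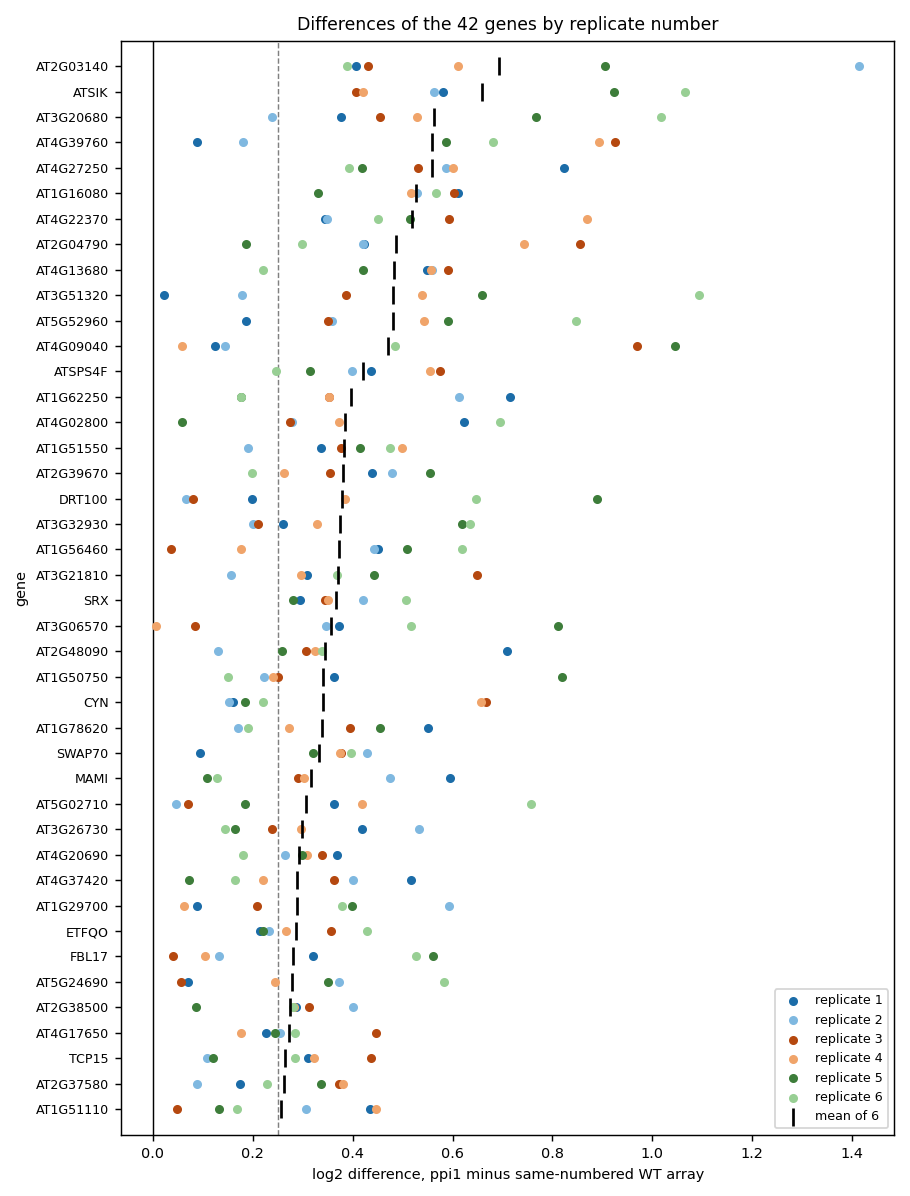
Log2 difference between each ppi1 array and the WT array of the same number (x axis) for the 42 genes (y axis), ordered by mean difference. Coloured points are the 6 replicate numbers, black ticks their mean, the solid line 0 and the dashed line the 0.25 threshold. All points lie above 0, as the rule requires, and 6 genes have all 6 points above the threshold.

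Signalling genes are described first. ATSIK (AT3G08760), a protein kinase, had WT levels of 0.879, 0.849, 0.903, 0.834, 0.777 and 0.797 in replicates 1 to 6, in quantile-normalised relative intensity. Its ppi1 levels were 1.31, 1.25, 1.20, 1.12, 1.47 and 1.67. The WT arrays were nearly level with each other, and every ppi1 array was above all of them. The mean log2 difference was 0.66 ± 0.27 (SD of 6 differences), the second largest of the 42, with the highest values in replicates 5 and 6. SWAP70 (AT2G30880), a guanine nucleotide exchange factor of small GTPases, was 0.565 ± 0.0547 (SD, n = 6) in WT and 0.712 ± 0.0868 in ppi1. Its WT arrays ran from 0.478 to 0.612 around a median of 0.592, and its ppi1 arrays from 0.598 to 0.805 around 0.719, so the groups met at their edges. The mean log2 difference of SWAP70 was 0.33 ± 0.12.

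F-box and RING proteins serve as substrate adaptors or ligases in the marking of proteins with ubiquitin. AT4G39760, an F-box protein with kelch repeats, was one of the brightest. Its WT levels in replicates 1 to 6 were 3.82, 3.64, 2.82, 2.57, 3.31 and 2.94, and its ppi1 levels 4.06, 4.13, 5.36, 4.78, 4.97 and 4.72. The groups did not overlap, but the gap was narrow in replicates 1 and 2, with log2 differences of 0.089 and 0.18, and wide in replicates 3 and 4, with 0.93 and 0.89. The mean was 0.56 ± 0.35 (SD of 6 differences).

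The F-box/kelch gene AT1G51550 was steadier, at 0.38 ± 0.11. Its levels were 0.514 to 0.724 in WT and 0.634 to 0.965 in ppi1. AT3G06570, of the same family, had a similar mean of 0.36 ± 0.29 but nearly no difference in replicate 4, at 0.0070, and its largest in replicate 5, at 0.81. It failed the rule with median scaling and with cyclic loess, although its mean differences there were 0.36 and 0.34. FBL17 (AT3G54650), an F-box protein known to target inhibitors of cyclin-dependent kinases in the male germ line, lay at 0.370 to 0.453 in WT and 0.408 to 0.588 in ppi1, a mean difference of 0.28 ± 0.22.

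The RING-type genes were AT3G26730 and AT2G37580. AT3G26730 spread widely within each group, from 0.301 to 0.689 in WT and from 0.337 to 0.921 in ppi1, and its mean difference was 0.30 ± 0.15. Replicate 1 was the highest array of both groups. The difference of means without ppi1 replicate 1, with WT replicate 1 kept, was 0.15, a value that breaks a same-numbered comparison. AT2G37580 lay just inside the threshold, at 0.26 ± 0.12. It was 0.712, 0.823, 0.754, 0.721, 0.968 and 1.03 in WT and 0.804, 0.875, 0.977, 0.939, 1.22 and 1.20 in ppi1. Replicates 5 and 6 were the brightest in both groups.

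**Figure D2:**
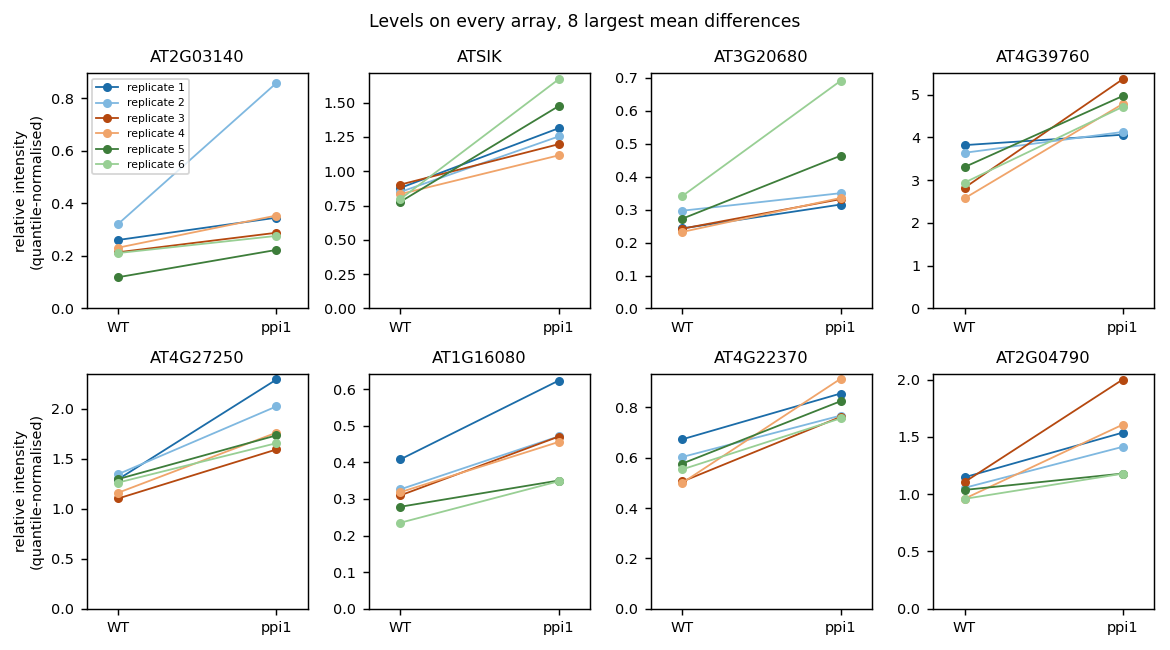
Quantile-normalised relative intensity (y axis, from 0) on the WT and ppi1 arrays of the 8 genes with the largest mean difference. Lines join arrays of the same replicate number. ATSIK, AT4G39760, AT4G27250, AT4G22370 and AT2G04790 show 2 groups that do not overlap, whereas AT2G03140 has 1 ppi1 array at 0.859 and the others at 0.223 to 0.354.

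Among enzymes of metabolism, AT4G27250, of the family of dihydroflavonol reductases, had groups that did not overlap. Its WT levels in replicates 1 to 6 were 1.3, 1.35, 1.10, 1.16, 1.3 and 1.26, and its ppi1 levels 2.29, 2.02, 1.59, 1.76, 1.73 and 1.66. All ppi1 arrays were above all WT arrays, and the differences ran from 0.39 in replicate 6 to 0.82 in replicate 1, with a mean of 0.56 ± 0.16.

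Cyanase (CYN, AT3G23490), which breaks cyanate down to ammonia and carbon dioxide, was among the 3 brightest. It was 4.06, 4.01, 2.52, 2.66, 2.77 and 2.80 in WT and 4.54, 4.45, 4.01, 4.20, 3.15 and 3.27 in ppi1. The WT arrays of replicates 1 and 2 were above the ppi1 arrays of replicates 5 and 6, so the groups overlapped although each number went the same way. Differences were 0.67 and 0.66 in replicates 3 and 4 and 0.15 to 0.22 in the other four, and the mean was 0.34 ± 0.25. Without replicates 3 and 4 the mean was 0.18, below the threshold.

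ATSPS4F (AT4G10120) encodes a sucrose phosphate synthase, an enzyme of sucrose synthesis in the cytosol. It ran from 1.09 to 1.66 in WT (median 1.5) and from 1.29 to 2.29 in ppi1 (median 2.11). The groups overlapped, and the mean difference was 0.42 ± 0.13, from 0.25 in replicate 6 to 0.57 in replicate 3. AT1G78620 encodes the phytyl phosphate kinase of tocopherol synthesis in the plastid. It was 0.442 ± 0.0371 (SD, n = 6) in WT and 0.560 ± 0.0651 in ppi1, with a mean difference of 0.34 ± 0.15.

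ETFQO (AT2G43400) passes electrons from amino acid breakdown to ubiquinone in mitochondria. Its difference was 0.29 ± 0.087, with levels of 0.470 to 0.639 in WT and 0.584 to 0.750 in ppi1. AT4G17650, a relative of the yeast coenzyme Q protein COQ10, did not overlap between groups. It was 0.428 to 0.555 in WT and 0.564 to 0.631 in ppi1, a difference of 0.27 ± 0.093. AT2G39670, a radical SAM protein, varied 2.04-fold between its lowest and highest WT arrays, more than its mean ppi1 to WT ratio of 1.3, yet its differences stayed between 0.20 and 0.55. AT1G29700, of the metallo-hydrolase superfamily, had a mean of 0.29 ± 0.20 and levels of 0.536 to 0.772 in WT and 0.560 to 1.02 in ppi1.

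SRX (AT1G31170), the sulfiredoxin that repairs overoxidised peroxiredoxins in plastids and mitochondria, had one of the most even differences. Its levels ran from 0.307 to 0.483 in WT (median 0.414) and from 0.436 to 0.592 in ppi1 (median 0.527). The ranges overlapped, but the difference lay between 0.28 and 0.51 in every number, with a mean of 0.37 ± 0.085.

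Genes with links to RNA, chromatin or DNA came next. AT4G09040, with RNA recognition motifs, had the narrowest WT range of the 42 for its level, from 0.578 to 0.643, and a wide ppi1 range, from 0.603 to 1.31. Its difference was as low as 0.059 in replicate 4 and as high as 1.05 in replicate 5, with a mean of 0.47 ± 0.44. AT3G51320, a pentatricopeptide repeat protein of the family that acts on organelle RNA, was dim. It ran from 0.104 to 0.166 in WT and from 0.152 to 0.270 in ppi1, with 1 array at the floor of 0.118 that was set for low values, and its difference of 0.48 ± 0.38 was as low as 0.023 in replicate 1. AT3G21810, a CCCH zinc finger protein, was 0.574 to 0.925 in WT and 0.776 to 1.19 in ppi1, a mean of 0.37 ± 0.17.

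TCP15 (AT1G69690), a TCP transcription factor of leaf and flower growth, was 0.292 to 0.378 in WT and 0.329 to 0.473 in ppi1, a mean of 0.26 ± 0.13. AT1G56460, with a HIT-type zinc finger, was 0.157 to 0.235 in WT and 0.177 to 0.285 in ppi1, a mean of 0.37 ± 0.22. DRT100 (AT3G12610), a leucine-rich repeat protein named for its effect in DNA repair mutants of Escherichia coli, was the dimmest of all. It had 4 arrays at the floor, levels of 0.0832 to 0.143 in WT and 0.123 to 0.224 in ppi1, and a mean difference of 0.38 ± 0.33 whose size depends on that floor. It failed the rule under each of cyclic loess, median scaling and the deposited scale.

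MAMI (AT5G54110), a mannitol-induced membrane protein by its name, ran from 1.18 to 1.41 in WT and from 1.28 to 1.99 in ppi1, a mean of 0.32 ± 0.19. AT1G51110, of the fibrillins (lipid-binding proteins of plastids), was the last gene inside the threshold at 0.26 ± 0.17. It was 0.295, 0.359, 0.345, 0.297, 0.220 and 0.276 in WT and 0.399, 0.444, 0.357, 0.404, 0.241 and 0.310 in ppi1. Replicate 5 was lowest in both groups, and the groups overlapped.

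The largest mean difference belonged to AT2G03140, of the alpha/beta-hydrolase superfamily, at 0.69 ± 0.40. Its WT levels in replicates 1 to 6 were 0.261, 0.322, 0.214, 0.232, 0.119 and 0.211, and its ppi1 levels 0.346, 0.859, 0.288, 0.354, 0.223 and 0.276. The groups overlapped, and ppi1 replicate 2 was far above the rest. Without that array, and with WT replicate 2 kept, the difference of means was 0.43, a value that breaks a same-numbered comparison. WT replicate 2 was the highest WT array of this gene. The same-numbered difference was 1.41 in replicate 2 and 0.39 to 0.91 in the others. With ppi1 replicate 2 left out, ATSIK had the largest difference of means, at 0.68, so the top place depended on that array. AT3G20680 followed ATSIK at 0.56 ± 0.28. It was 0.243, 0.297, 0.242, 0.232, 0.273 and 0.342 in WT and 0.316, 0.35, 0.332, 0.336, 0.464 and 0.691 in ppi1, so replicates 5 and 6 carried the larger differences.

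The remaining genes are named without a role. AT1G16080 was 0.408, 0.326, 0.310, 0.319, 0.279 and 0.235 in WT and 0.623, 0.471, 0.470, 0.456, 0.35 and 0.348 in ppi1. Level varied with the replicate number in both groups alike, so that the groups overlapped while the differences were even, at 0.53 ± 0.10. AT4G22370 was 0.673, 0.603, 0.506, 0.501, 0.577 and 0.554 in WT and 0.855, 0.768, 0.763, 0.914, 0.825 and 0.757 in ppi1, with no overlap and a mean of 0.52 ± 0.20.

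AT2G04790 was 1.15, 1.05, 1.11, 0.960, 1.04 and 0.959 in WT and 1.54, 1.41, 2.0, 1.61, 1.18 and 1.18 in ppi1. Its groups did not overlap, its mean was 0.49 ± 0.26, and its differences were largest in replicates 3 and 4. AT1G62250 was the brightest of the 42. It was 5.85, 5.85, 5.22, 5.03, 5.5 and 5.5 in WT and 9.59, 8.94, 6.67, 6.42, 6.22 and 6.22 in ppi1, again without overlap, with differences of 0.71 and 0.61 in replicates 1 and 2 and 0.18 in both replicates 5 and 6. Its mean was 0.40 ± 0.22 after quantile normalisation but -0.085 with median scaling.

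AT4G13680, with levels of 1.5 to 2.80 in WT and 1.75 to 4.10 in ppi1, had a mean of 0.48 ± 0.14. AT5G52960 did not overlap between groups, at 0.264 to 0.324 in WT and 0.345 to 0.524 in ppi1, a mean of 0.48 ± 0.23. AT4G20690, at 0.527 to 0.623 and 0.642 to 0.788, did not overlap either and had the smallest spread of the 42, with a mean of 0.29 ± 0.066. For the other 8, all with overlapping groups, the mean differences ran from 0.38 for AT4G02800 to 0.28 for AT2G38500. These 8 were AT4G02800, AT3G32930, AT2G48090, AT1G50750, AT5G02710, AT4G37420, AT5G24690 and AT2G38500. The difference of means of AT2G48090 was 0.34 with all arrays and 0.12 without WT replicate 1, with ppi1 replicate 1 kept. These 2 arrays were the lowest of their groups, at 0.120 and 0.196, so the value of 0.12 breaks a same-numbered comparison. AT1G50750 went from 0.34 to 0.21 without ppi1 replicate 5, again with the WT array of that number kept.

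Just outside the threshold, with 6 of 6 numbers higher, stood AT1G68430 and AT5G02850. AT1G68430 was 0.344, 0.315, 0.289, 0.305, 0.327 and 0.271 in WT and 0.404, 0.365, 0.291, 0.371, 0.385 and 0.386 in ppi1, a mean difference of 0.248. AT5G02850 was 0.433, 0.452, 0.309, 0.338, 0.345 and 0.418 in WT and 0.530, 0.466, 0.393, 0.491, 0.387 and 0.444 in ppi1, a mean of 0.246. These are close to AT1G51110 at 0.256 and AT2G37580 at 0.264, so the edge of the set is set by the threshold and not by a gap in the values.

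What the genes share beyond the rule was limited. Their mean WT level ran from 0.111 to 5.49, with a median of 0.459 against 0.531 for all named features and 0.567 for all features. With all features split at their 25th, 50th and 75th percentiles of WT level, 11, 14, 9 and 8 of the 42 fell in the classes from dim to bright, against 190, 176, 163 and 147 of the named features. The median length of the annotated gene was 2102 bases, against 2142 for named features. Chromosome 5 held 4 of the 42 (9.52%), against 20.3% of named features, and chromosomes 1, 3 and 4 held 10 each. The closest genes in chromosomal order, AT1G50750 and AT1G51110, were 33 protein-coding genes apart. No other feature with 1 gene measured any of the 42. Features annotated to several genes were not searched for a second reading. Levels of different features were set side by side only to order them by brightness.

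Of 17 lists of functional words searched in symbols and synonyms, 10 found no named feature. The lists for F-box, kelch, ubiquitin, and zinc finger or transcription factor were among these. The groupings by role above therefore have no share over all features beside them. A list holds only genes whose entry carries the word, so its counts do not describe the whole class. The list of reductases, dehydrogenases and oxidases found 7, of which ETFQO met the rule for higher and 1 gene the rule for lower values, with a median difference of 0.044. AT4G27250 was not in that list. The list of proteases, peptidases and chaperonins found 5, of which 1, set aside by name, met the rule for higher values, with a median of 0.015. The kinase list found 2, with 0 higher and 1 lower and a median of -0.35, and ATSIK was not in it because its entry lacks the word. The lists for phosphatase, plastid, methyltransferase and transferase found 1, 1, 1 and 2 features, with 0 meeting either rule and medians of -0.13, -0.26, 0.18 and 0.23. The median over all named features was 0.0051.

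**Figure D3:**
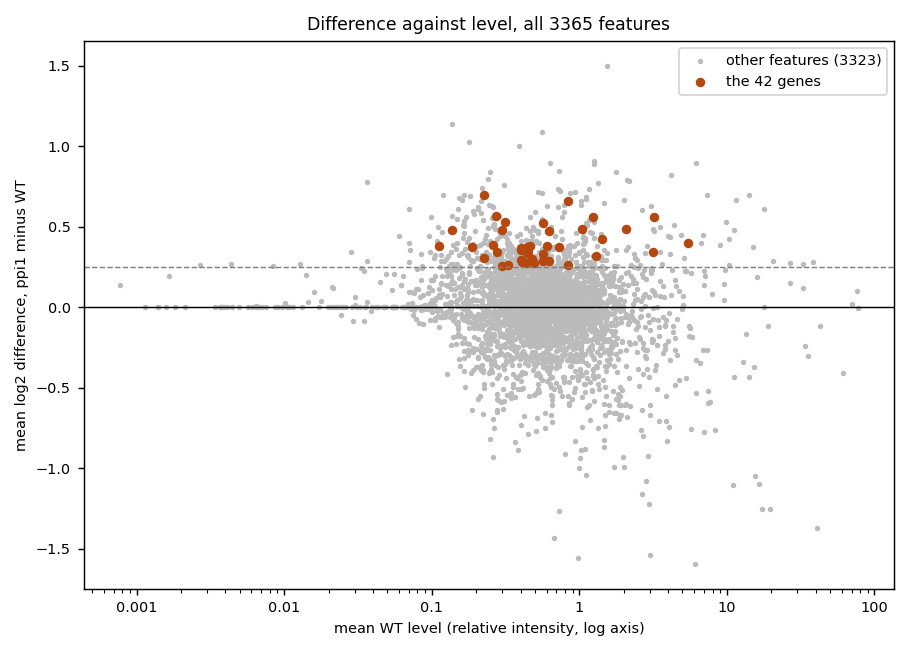
Mean log2 difference (ppi1 minus WT) against the mean WT level (log axis) for all 3365 features in grey and the 42 genes in orange. The dashed line is the 0.25 threshold. The 42 genes span WT levels of 0.111 to 5.49, and features at or above their differences are found among the grey points at the same levels.

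The 6 differences of a gene were not equally independent. The gap between the differences of adjacent replicates (1 and 2, 3 and 4, 5 and 6) had a median of 0.107 over the 42 genes, against 0.217 between replicates of different sets, and was the smaller of both in 30 of them. Over all features these medians were 0.112 and 0.25. The labels do not say whether adjacent replicates are repeats of 1 sample, so the 6 comparisons in the rule were not shown to be separate. The largest of the 3 set means was over 3 times the smallest in 14 genes, between 1.5 and 3 times in 18, and under 1.5 times in 10. Only 16 genes had every set mean at or above the threshold.

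By the range of the 3 set means, the narrowest were AT1G78620, with set means of 0.36, 0.33 and 0.32, and SRX, with 0.36, 0.35 and 0.39. The widest were AT3G51320, with 0.10, 0.46 and 0.88, and AT4G39760, with 0.14, 0.91 and 0.63. By the ratio of the largest to the smallest mean, AT3G06570 came first at 14.6, with 0.36, 0.045 and 0.66. No set held the largest mean throughout, since it was replicates 1 and 2 in 13 genes, 3 and 4 in 12, and 5 and 6 in 17. The median over the 42 genes was 0.34 in the first and second sets and 0.39 in the third, with a median of 0 over all features in each.

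**Figure D4:**
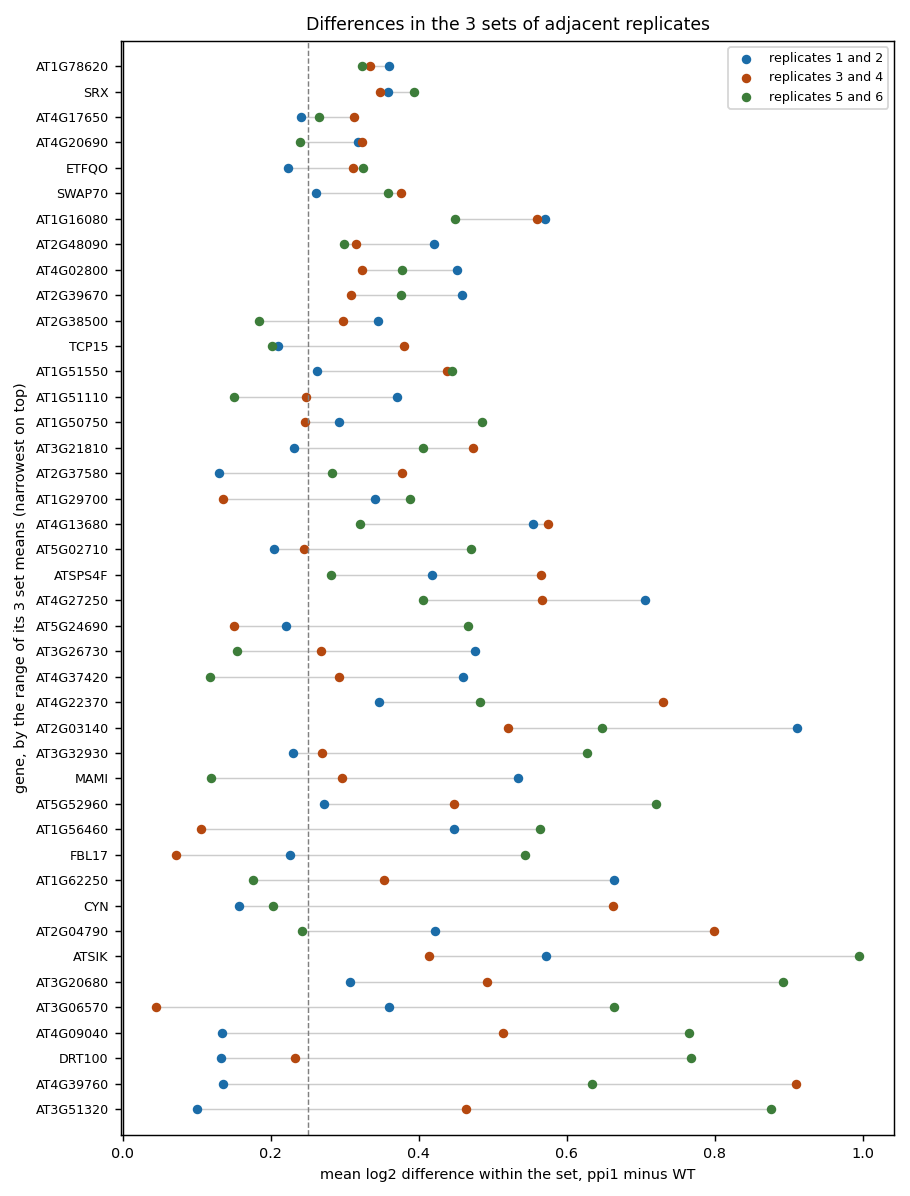
Mean log2 difference (ppi1 minus WT, x axis) within replicates 1 and 2, 3 and 4, and 5 and 6 for each of the 42 genes, ordered from the narrowest range of the 3 means to the widest. The dashed line is the 0.25 threshold. AT1G78620 and SRX are narrow, while AT3G51320 and AT4G39760 are wide.

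The spread of the 6 differences was smaller than the spread within groups in 28 of the 42 genes (66.7%), against 42.1% of all features. The rule asks for the same direction in every numbered comparison and so favours such genes. The median SD of the differences was 0.195 over the 42 and 0.212 over all features, and the median SD within groups was 0.233 and 0.217.

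How far the genes stood above WT depended on the scaling of the arrays. On the deposited scale the median of all features was already 0.21 higher in ppi1, and the 42 genes had a median of 0.59. AT1G62250, at 0.19, was then below that median of all features, and the other 41 genes were above it. With each array scaled to its median instead, the 42 had a median of 0.33. The 8 genes with a WT level above 1 then had a median of 0.19, against 0.45 after quantile normalisation, and 2 of the 8, AT4G27250 and AT2G04790, still met the rule. Of the 34 dimmer genes, 30 still met it, and DRT100, AT3G06570, AT1G29700 and AT2G37580 did not. CYN was at 0.012, MAMI at 0.14, AT4G39760 at 0.18, AT4G13680 at 0.19 and ATSPS4F at 0.22 with median scaling. The order of the bright genes against the dim ones thus depended on the scaling, whereas 30 genes met the rule under each of cyclic loess, median scaling and the deposited scale.

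**Figure D5:**
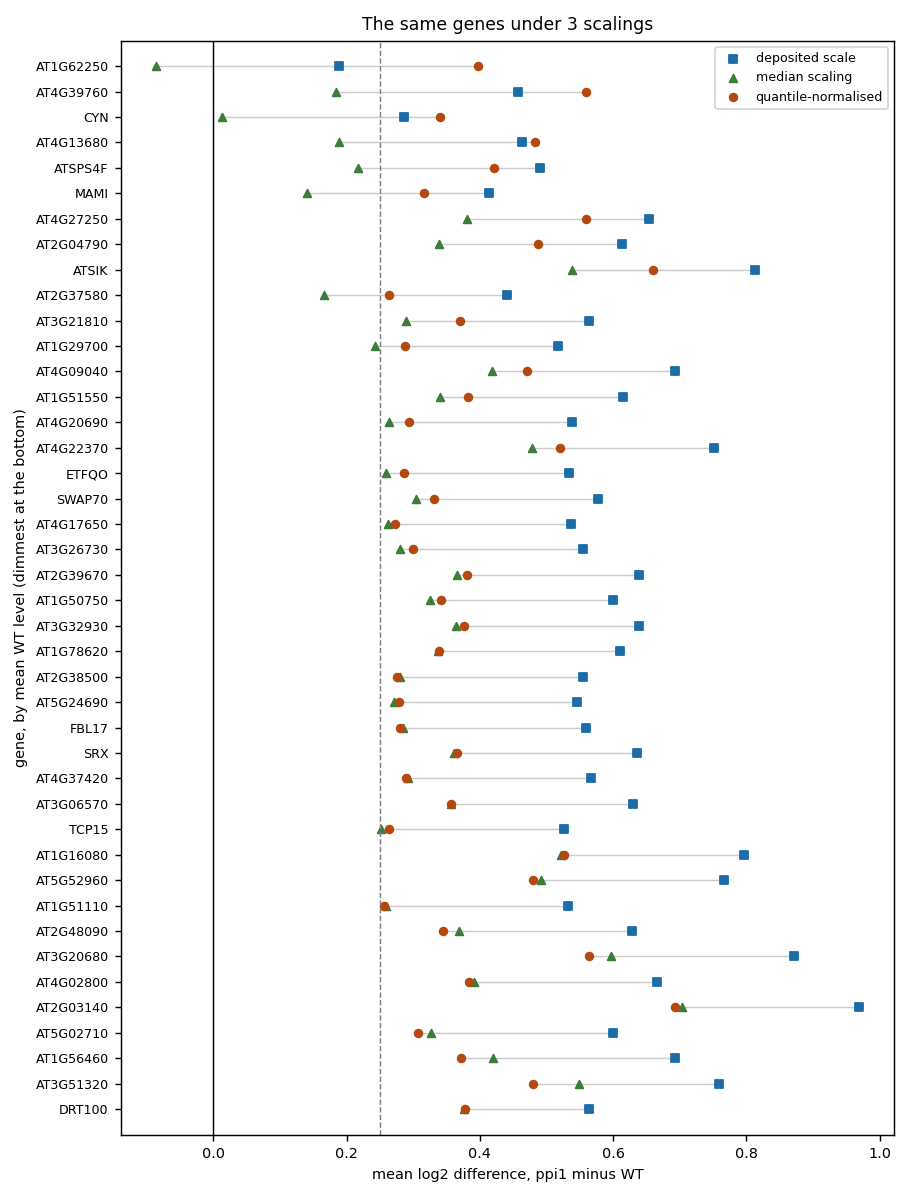
Mean log2 difference (ppi1 minus WT, x axis) of the 42 genes on the deposited scale (squares), with median scaling (triangles) and after quantile normalisation (circles), ordered by mean WT level with the brightest on top. The dashed line is the 0.25 threshold. The bright genes lie lowest with median scaling, where AT1G62250 is at -0.085 and CYN at 0.012.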

How the data were processed

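The authors deposited 1 table of hybridisation intensity, linear and never negative, for 12 arrays. The sources used here do not give the treatment of background and scale. Groups and replicate numbers were taken from sample titles. Of 3439 features, 74 at 0 on every array were left out. Arrays were quantile-normalised, values under a floor of 0.118 (the 5th percentile of positive values) were raised to it, and log2 was taken; printed levels are before the floor. Features were named through the 2016 platform annotation (692 with 1 gene, 870 with several, 1877 with none), with symbols updated by gene identifier against TAIR10.1; 2 identifiers were not found there. No coordinates are given.

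The rule in the opening paragraph picked the genes; they and all lists were chosen with earlier results of these data known. Every gene is named; array values are printed for the 8 largest differences, the 3 brightest, and 2 on each side of the threshold. limma 3.58.1 (R 4.3.3; lmFit, eBayes, no covariate, Benjamini-Hochberg adjusted p under 0.05, two-sided) was fitted on all features only for counts over the whole table, and tested on simulated data. The rule compared arrays of the same number in the titles, and the labels do not call them pairs. Same-numbered arrays deviated together (correlations 0.379 to 0.590). The limma fit without a covariate did not use the pairs. Alternatives were other scalings, an offset, filters, other thresholds, blocks and leaving out arrays. Promoter motifs and protein lengths were planned and not analysed here. The number of arrays limits precision, and p-values would measure only the spread between these arrays.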

Additional observations from a re-analysis of the deposited data

Results flagged for a closer look

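Dixon's test was run on 88 groups of 6 arrays (44 genes), and 3 groups held an array well away from its fellows; by chance about 5% of groups do. In AT2G03140 this was ppi1 replicate 2, at 0.859, with the remaining ppi1 arrays at 0.223 to 0.354. In AT4G02800 it was ppi1 replicate 5, at 0.264, below the remaining range of 0.335 to 0.371. In AT1G68430, just outside the threshold, it was ppi1 replicate 3, at 0.291, below 0.365 to 0.404.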

How the results depend on the processing

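Leaving out 2 adjacent replicates was chosen after the data were seen, as were 2 alternatives for low values in the whole-table fit. Against 42 genes, 190 met the conditions on the deposited scale, where all features shift up. The count was 23 at a threshold of 0.35, and 74 without replicates 1 and 2, where 4 numbers had to agree. Over all features these counts were 954, 130 and 363, against 224 with the main settings. Of the 42 themselves, 40 met them on the deposited scale, 32 with median scaling, 38 with cyclic loess, 27 with an added offset instead of a floor and 32 without dim features. Without dim features AT3G20680, TCP15 and AT1G51110 failed. The others missing there were removed by that filter and so were not assessed. Leaving out each replicate number gave 45 to 49 genes, with 39 or 40 of the 42 among them. The 42 were chosen as higher in every number, so they could drop out mainly through the threshold on the mean. That 39 or 40 stayed was therefore largely set by the choice and is no test of stability. The median difference of the 42 was 0.59 on the deposited scale, and 0.35 to 0.38 without each array in turn. AT1G62250 reversed with median scaling (-0.085). The cause was not tested. Over all features limma called 284 (106 higher, 178 lower), 517 with the replicate block (250 and 267), 99 with sets of adjacent replicates in a random block (28 and 71), 4 with them averaged (0 and 4; 398 at an unadjusted p under 0.05), and 909 on the deposited scale (805 and 104). Median scaling gave 80 higher and 336 lower. The fits without 1 array gave 222 to 277.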
